A study of Mus musculus with 6 samples.

Results

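The 29 genes described here encode enzymes of cholesterol synthesis and proteins that sense, move, export or store sterols. They were chosen by name: every array probe whose transcript accession belongs to 1 of the 29 genes was taken, which gave 41 of the 55681 distinct probes on the array. All 41 probes passed the filter on dim probes, so all 29 genes were among the 25439 genes and genomic intervals tested. The samples were J1 cells, an embryonic stem cell line of mouse strain 129S4/SvJae, grown on gelatin in medium with serum replacement and LIF at 1000 U/ml. In 3 samples the medium held 1 µM SC1 for 6 h, and 3 samples received DMSO for the same time. SC1, also called pluripotin, is a small molecule described as an inhibitor of ERK1, a kinase of FGF signalling, and of RasGAP, which switches RAS off. Both groups carried LIF, no group lacked it, and a single cell line was used. Each sample was read on 1 single-colour array, so there were 3 arrays per group, and this number limits the precision of every value.

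Cells make cholesterol from acetyl-CoA in a long chain of reactions. The early steps build isoprenoids, the middle steps join them into squalene and close lanosterol, and the late steps trim lanosterol to cholesterol. Most genes of the chain are known targets of SREBP2, a transcription factor held in the endoplasmic reticulum with its escort SCAP by INSIG proteins when sterols are plentiful. When sterols run low, SREBP2 moves to the Golgi, is cut free and enters the nucleus. Oxidised sterols activate a separate factor, LXR, whose known targets include sterol exporters and the ubiquitin ligase encoded by Mylip.

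Promoter sequences of 5 of the genes are shown because they differ in the letters that SREBP2 and its partners are known to read. Windows from RefSeq (build GRCm38.p6, 250 bases before to 50 after a transcript start) were found for 24 of the 29 genes, 30 windows in all, and not for Fdps, Sqle, Fdft1, Abcg1 and Stard4. Each is printed 5′ to 3′ along its gene's strand. Capitals mark letters matching TCACNNCAC (a loose form of the sterol response element), CACGTG (the E-box) or CCAAT (the CCAAT box, read by NF-Y) on either strand, and neighbouring matches can overlap. The Hmgcs1 window lies at chr13:119690101-119690400 on the plus strand, that of Msmo1 at chr8:64733529-64733828 on the minus strand and that of Hsd17b7 at chr1:169969156-169969455 on the minus strand. The Insig1 window lies at chr5:28071162-28071461 and the Mylip window at chr13:45389492-45389791, both on the plus strand.
Hmgcs1: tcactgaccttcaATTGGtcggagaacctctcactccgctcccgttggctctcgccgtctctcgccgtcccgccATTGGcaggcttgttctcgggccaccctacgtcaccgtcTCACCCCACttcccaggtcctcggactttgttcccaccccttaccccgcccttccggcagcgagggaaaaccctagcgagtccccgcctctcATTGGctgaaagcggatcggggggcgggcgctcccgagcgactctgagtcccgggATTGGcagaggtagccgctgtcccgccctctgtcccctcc
Msmo1: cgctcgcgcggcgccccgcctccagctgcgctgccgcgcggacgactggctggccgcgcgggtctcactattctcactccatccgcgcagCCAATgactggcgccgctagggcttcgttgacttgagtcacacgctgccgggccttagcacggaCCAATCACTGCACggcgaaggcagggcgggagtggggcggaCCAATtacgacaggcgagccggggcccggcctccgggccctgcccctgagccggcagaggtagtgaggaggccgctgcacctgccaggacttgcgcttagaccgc
Hsd17b7: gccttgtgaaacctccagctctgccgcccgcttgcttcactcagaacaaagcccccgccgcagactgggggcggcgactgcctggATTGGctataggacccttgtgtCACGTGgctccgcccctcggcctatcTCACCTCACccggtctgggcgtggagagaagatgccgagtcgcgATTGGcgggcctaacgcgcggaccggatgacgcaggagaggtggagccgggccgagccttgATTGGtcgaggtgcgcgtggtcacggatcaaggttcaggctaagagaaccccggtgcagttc
Insig1: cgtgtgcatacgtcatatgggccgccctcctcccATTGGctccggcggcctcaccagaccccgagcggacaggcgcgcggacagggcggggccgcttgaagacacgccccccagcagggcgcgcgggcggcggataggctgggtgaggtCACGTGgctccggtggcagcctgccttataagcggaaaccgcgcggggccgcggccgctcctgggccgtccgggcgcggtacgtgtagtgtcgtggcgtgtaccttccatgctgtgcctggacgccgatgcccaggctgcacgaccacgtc
Mylip: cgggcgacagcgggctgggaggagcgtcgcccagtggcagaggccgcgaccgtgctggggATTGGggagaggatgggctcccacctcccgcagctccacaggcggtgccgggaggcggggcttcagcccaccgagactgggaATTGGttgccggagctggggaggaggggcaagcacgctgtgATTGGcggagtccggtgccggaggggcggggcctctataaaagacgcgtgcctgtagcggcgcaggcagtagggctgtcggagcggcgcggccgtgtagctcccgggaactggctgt

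The loose element TCACNNCAC was present in the windows of 4 genes, Hmgcs1, Msmo1, Hsd17b7 and Dhcr7, all of which are enzymes. That is 13.3% of the 30 windows, beside 3.77% of 32851 RefSeq windows of the same length. The stricter form TCACNCCAC was present in the Hmgcs1 window and no other, 3.33% of the 30 windows and 1.24% of all windows. CACGTG was present in 6 genes, Hsd17b7, Insig1, Dhcr7, Sc5d, Scap and Abca1, in 23.3% of the 30 windows and 7.15% of all. CCAAT matched in 21 genes, 70.0% of the 30 windows against 37.4% of all, and GGGCGG, the GC box, in 22 genes, 83.3% against 35.7%. Both strands were searched, base composition was not matched, and a match is a description of letters, not of a bound site. The Mylip window held CCAAT letters and neither TCACNNCAC nor CACGTG.

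SC1 was compared with DMSO to ask which RNAs changed after 6 h of the compound. Signals are given as multiples of the 75th percentile of all probes on the same array, here called relative signal, and a gene with several probes is represented by its brightest one. Relative signals compare arrays for 1 probe and cannot be compared between genes. A gene was called when its adjusted p was under 0.05 in a limma fit over all genes tested, with Benjamini-Hochberg adjustment. The labels give replicate numbers and do not say that the samples were separate cultures, so p-values cover only how far these samples differ, and that spread may be technical.

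Of the 29 genes 21 fell, 2 rose and 6 did not pass the test. The array as a whole also moved: 38.4% of the 25439 genes were called, 20.2% lower and 18.1% higher, and the median log2 fold change of all genes was -0.01. The SC1 and DMSO arrays of the 21 genes that fell did not overlap, nor did those of the 2 that rose. Over all genes, 27.6% were lower with no overlap and 24.6% were higher with no overlap. The median log2 fold change of the 29 genes was -0.31. In RNA from whole cultures, fewer cells of a type and less RNA per cell cannot be told apart.

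The 20 enzymes of the chain gave 17 lower calls and no higher call, with a median log2 fold change of -0.41, a fold of 0.755. Their median against the DMSO mean was -0.36, -0.45 and -0.41 on the 3 SC1 arrays. It lay at -0.01, -0.02 and 0.02 on the 3 DMSO arrays. By position in the chain, 5 of 8 genes from acetyl units to isoprenoids fell (median -0.28), 3 of 3 genes of squalene and lanosterol fell (median -0.79), and 9 of 9 genes from lanosterol to cholesterol fell (median -0.60). The 3 enzymes not called, Acat2, Pmvk and Ggps1, all belong to the first group. These counts stand beside 20.2% lower and 18.1% higher over all genes.

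**Figure D1:**
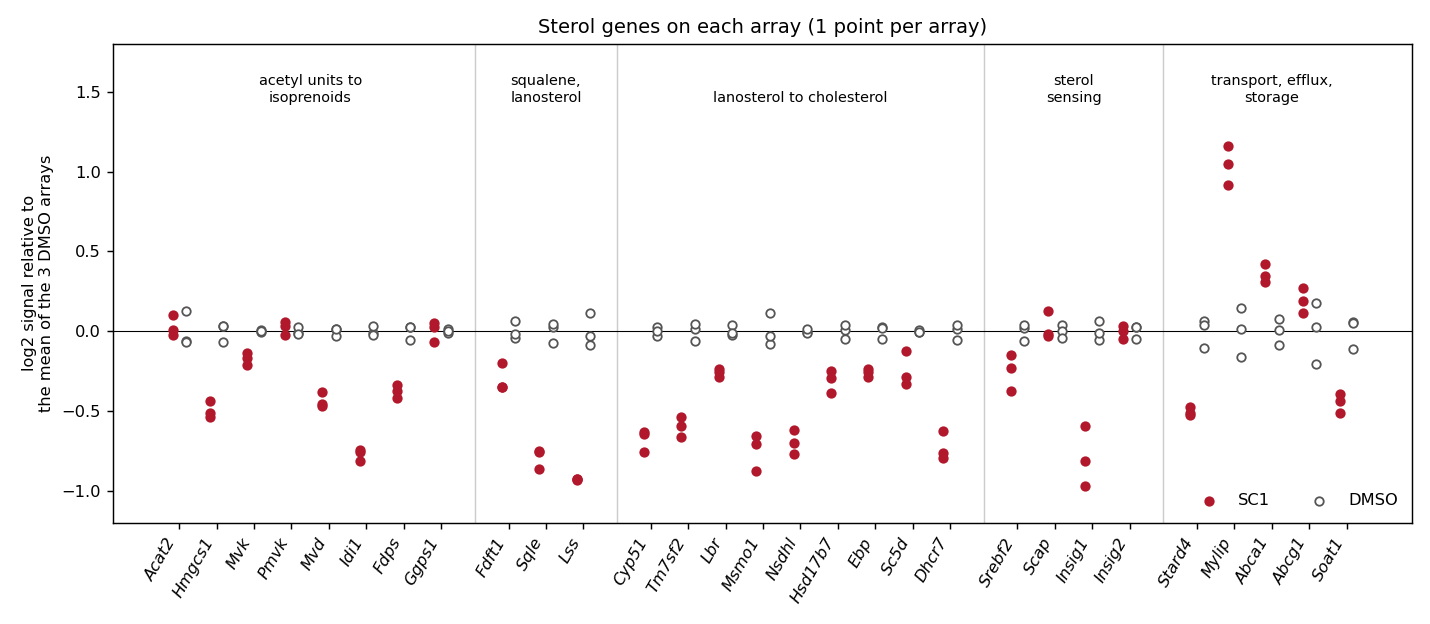
Log2 signal of each of the 29 genes on each array, relative to the mean of the 3 DMSO arrays, by position in the pathway; filled points are the 3 SC1 arrays and open points the 3 DMSO arrays. For 17 of the 20 enzymes all SC1 points lie below all DMSO points, and for Mylip and Abca1 all SC1 points lie above them. Over all genes 27.6% were lower and 24.6% higher with no overlap.

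Hmgcs1 encodes the synthase that makes HMG-CoA, an early step of the chain. Its relative signal was 43.4, 44.2 and 46.6 on the SC1 arrays and 64.6, 64.4 and 60.2 on the DMSO arrays. Every SC1 value was well below the lowest DMSO value. The log2 fold change was -0.50 (SE 0.0513, limma adjusted p = 0.000881), a fall of 1.41-fold.

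The next enzymes phosphorylate and decarboxylate mevalonate. Mvk, mevalonate kinase, had relative signals of 16.0, 16.5 and 16.9 with SC1 and 18.5, 18.7 and 18.6 with DMSO, a small gap without overlap (log2 fold change -0.17, SE 0.0397, limma adjusted p = 0.0174). Its second probe gave -0.18. The value fell to -0.10 with quantile normalization (limma adjusted p = 0.0757), and the call was also lost without DMSO replicate 2 or 3 or SC1 replicate 1 (adjusted p 0.0541 to 0.0585). Pmvk, phosphomevalonate kinase, lay at 22.8, 21.6 and 22.5 with SC1 and at 21.8, 22.4 and 21.7 with DMSO. These groups overlapped, and the log2 fold change of 0.02 had a 95% interval of -0.08 to 0.13. Mvd, the decarboxylase that follows, fell by 0.43 on the log2 scale (SE 0.0441, limma adjusted p = 0.000818).

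Idi1 encodes the isomerase that balances the isoprene units from which longer isoprenoids are built. Relative signals were 11.5, 11 and 11.6 on the SC1 arrays and 19.3, 19.1 and 19.8 on the DMSO arrays. It had the largest fall among the 8 genes of the first group (log2 fold change -0.77, SE 0.042, limma adjusted p = 8.62e-05). The arrays of each group lay close together and far from those of the other group.

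Fdps and Ggps1 lie at the branch of the isoprenoids. Fdps makes farnesyl diphosphate, from which both sterols and other isoprenoids are drawn. It stood at 52.5, 49.5 and 51.1 with SC1 and at 63.9, 67.6 and 67.5 with DMSO (log2 fold change -0.38, SE 0.046, limma adjusted p = 0.00163). Ggps1 makes geranylgeranyl diphosphate, used to anchor small GTPases to membranes. Its brightest probe gave 4.57, 4.97 and 4.87 with SC1 and 4.82, 4.74 and 4.79 with DMSO. The SC1 arrays spanned the DMSO arrays, and the log2 fold change was 0.00 (95% interval -0.11 to 0.12, limma adjusted p = 0.957). A second Ggps1 probe gave 1.5, 1.44 and 1.52 with SC1 and 1.65, 1.74 and 1.69 with DMSO, a log2 fold change of -0.18 (SE 0.046, limma adjusted p = 0.0248 over all probes). The probes of Ggps1 therefore gave different calls. Acat2, the thiolase that joins acetyl-CoA at the start of the chain, lay at 0.776, 0.711 and 0.727 with SC1 and at 0.694, 0.691 and 0.788 with DMSO, with a log2 fold change of 0.03 (95% interval -0.14 to 0.20).

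Fdft1 encodes squalene synthase, the first step given over to sterols alone. The brightest probe gave 12.0, 10.8 and 10.9 with SC1 and 13.4, 13.7 and 14.5 with DMSO, without overlap (log2 fold change -0.30, SE 0.0601, limma adjusted p = 0.0107). A second, dim probe gave 0.0219, 0.0257 and 0.0294 with SC1 and 0.0353, 0.0300 and 0.0243 with DMSO. Those groups overlapped and the probe was not called (log2 fold change -0.21, limma adjusted p = 0.375).

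Sqle encodes squalene epoxidase, a known control point of the chain. Relative signals were 21.0, 19.5 and 21.1 on the SC1 arrays and 36.2, 33.7 and 36.6 on the DMSO arrays, a log2 fold change of -0.79 (SE 0.056, limma adjusted p = 0.000216). Lss encodes lanosterol synthase, which closes the sterol rings. It stood at 0.985, 0.987 and 0.983 with SC1 and at 1.84, 1.77 and 2.03 with DMSO. The SC1 arrays were almost equal and lay far below all DMSO arrays. The log2 fold change of -0.93 (SE 0.0596, limma adjusted p = 0.000153) was the largest fall of the 29 genes, and lay at the 2.36 percentile of all genes tested.

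The late enzymes remove methyl groups and move double bonds. Cyp51 demethylates lanosterol. Its arrays read 1.20, 1.10 and 1.19 with SC1 and 1.89, 1.82 and 1.86 with DMSO (log2 fold change -0.68, SE 0.0494, limma adjusted p = 0.000235). Msmo1, the methylsterol oxidase that acts next to Nsdhl, had the largest fall of this group: 24.5, 21.1 and 23.7 with SC1 against 36.6, 37.8 and 41.7 with DMSO (log2 fold change -0.75, SE 0.0799, limma adjusted p = 0.00099). In both genes every SC1 array was far below every DMSO array.

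Nsdhl encodes the sterol dehydrogenase that takes part in the same demethylation. It stood at 1.6, 1.45 and 1.51 with SC1 and at 2.46, 2.44 and 2.49 with DMSO (log2 fold change -0.70, SE 0.0501, limma adjusted p = 0.000227). Its second probe gave -0.69. Hsd17b7, the reductase that completes this demethylation, fell by 0.31 on the log2 scale (SE 0.0532, limma adjusted p = 0.00594), and by 0.26 on its second probe. Both genes were thus lower on each of their probes.

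Dhcr7 encodes the reductase whose loss causes Smith-Lemli-Opitz syndrome in people. Its relative signal was 1.53, 1.39 and 1.36 with SC1 and 2.39, 2.27 and 2.43 with DMSO (log2 fold change -0.73, SE 0.0602, limma adjusted p = 0.000364). Ebp, a sterol isomerase, fell by 0.26 on the log2 scale. Sc5d, the desaturase that acts just before Dhcr7, had the smallest fall of the late enzymes: 3.07, 2.98 and 3.44 with SC1 against 3.74, 3.77 and 3.73 with DMSO (log2 fold change -0.25, SE 0.0628, limma adjusted p = 0.0251). Replicate 3 with SC1 was the nearest to the DMSO arrays, and the call was lost when any array except that one was left out, with adjusted p between 0.0636 and 0.0773 in those fits.

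Tm7sf2 and Lbr encode reductases of the same sterol double bond, and Lbr is also the lamin B receptor of the inner nuclear membrane. Tm7sf2 stood at 5.81, 5.60 and 5.33 with SC1 and at 8.50, 8.10 and 8.72 with DMSO (log2 fold change -0.60, SE 0.0529, limma adjusted p = 0.000476), with -0.57 on a second probe. Lbr stood at 26.4, 25.6 and 26.1 with SC1 and at 30.7, 32 and 31.0 with DMSO, without overlap (log2 fold change -0.26, SE 0.0402, limma adjusted p = 0.00401). The second Lbr probe gave 1.36, 1.28 and 1.53 with SC1 and 1.21, 1.31 and 1.34 with DMSO, with overlap and the opposite sign (log2 fold change 0.11, limma adjusted p = 0.326). With the mean of both Lbr probes the log2 fold change was -0.07 (limma adjusted p = 0.323).

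Across the 12 genes with 2 probes, 8 pairs gave the same call and 4 did not, those of Fdft1, Ggps1, Lbr and Srebf2. In 8 pairs the signs matched. The Mylip pair is among the 8 in both counts, with a second probe dim in DMSO. That probe passed the filter only through the SC1 arrays, so its match adds no support. Of the 41 probes 27 were lower, 3 higher (this Mylip probe among them) and 11 not called. Among 35321 probes tested 19.5% were lower and 16.8% higher. The array design names a transcript for each probe and does not say which isoforms or related transcripts a probe also binds, and this was not tested.

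**Figure D2:**
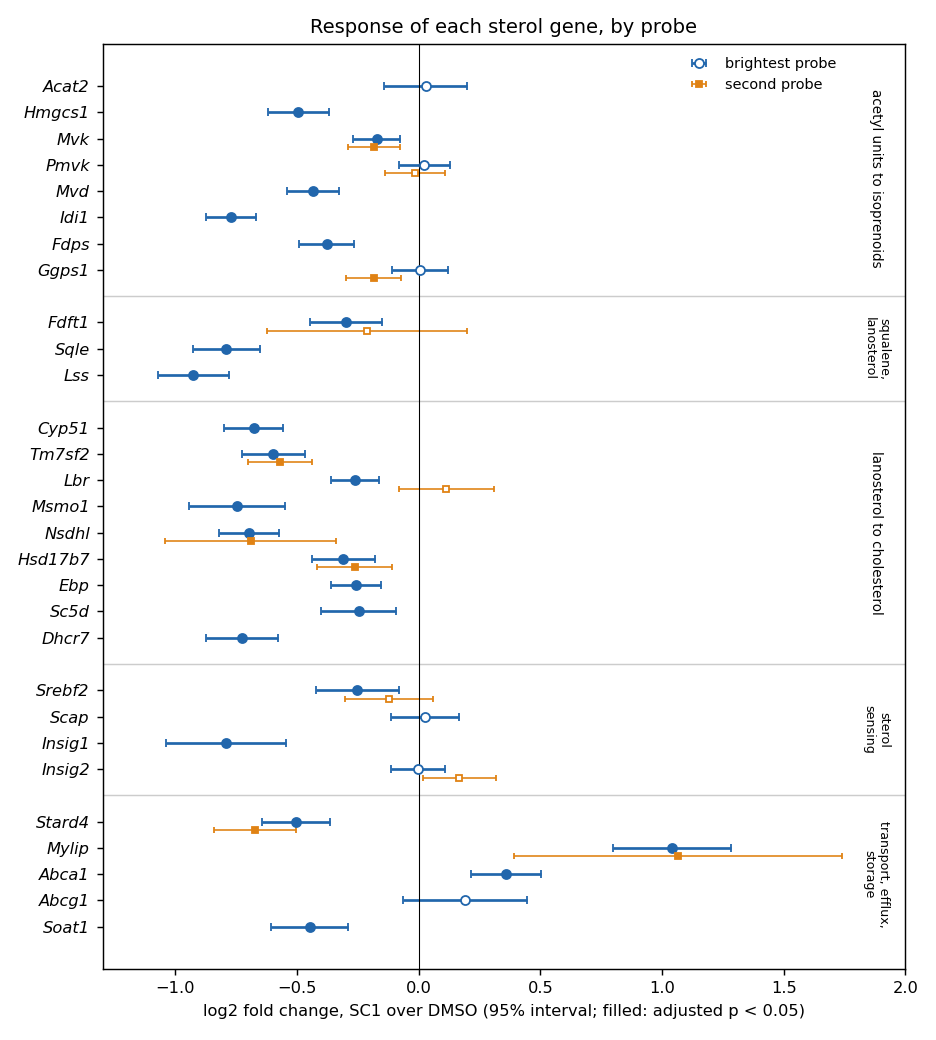
Log2 fold change of SC1 over DMSO for every probe of the 29 genes, with 95% intervals; circles are the brightest probe, squares a second probe, and filled marks passed the test. Among the brightest probes the largest fall is that of Lss at -0.93 and the largest rise that of Mylip at 1.04. The probes of Ggps1 and Lbr do not lie together.

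Of the genes that sense sterols 2 of 4 fell, none rose, and the median log2 fold change was -0.13. Over all genes 20.2% were lower and 18.1% higher, and with so few genes the counts say little about the group. Insig1 encodes a protein that holds SCAP in the endoplasmic reticulum, and is itself a known SREBP target. Its relative signal was 0.708, 0.823 and 0.633 on the SC1 arrays and 1.20, 1.23 and 1.30 on the DMSO arrays (log2 fold change -0.79, SE 0.101, limma adjusted p = 0.00193). The SC1 arrays were more spread than for most of the enzymes, and all lay below the DMSO arrays.

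Insig2, its paralogue, is not known to depend on SREBP in the same way. It stood at 3.81, 3.69 and 3.91 with SC1 and at 3.68, 3.88 and 3.88 with DMSO, with overlapping groups (95% interval of the log2 fold change -0.11 to 0.11, limma adjusted p = 0.962). A second probe gave 0.17 (limma adjusted p = 0.0824). Scap, the escort, stood at 14.6, 14.4 and 16.0 with SC1 and at 15.1, 14.7 and 14.3 with DMSO (log2 fold change 0.03, 95% interval -0.11 to 0.17). The intervals of Insig2 and Scap exclude a fall as large as that of Insig1. The difference between Insig1 and Insig2 was not tested.

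Srebf2 encodes SREBP2. Its brightest probe gave 1.49, 1.74 and 1.64 with SC1 and 1.96, 1.98 and 1.85 with DMSO (log2 fold change -0.25, SE 0.0696, limma adjusted p = 0.0327). The groups did not overlap, but the call was lost when any array except the second SC1 array was left out (adjusted p 0.0541 to 0.0966). A second probe gave 0.456, 0.391 and 0.390 with SC1 and 0.440, 0.445 and 0.459 with DMSO. It was not called (log2 fold change -0.12, limma adjusted p = 0.25), with the first SC1 array inside the DMSO range.

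Of the 5 genes of transport, efflux and storage, 2 fell, 2 rose and 1 was not called. The shares over all genes were 20.2% lower and 18.1% higher, so counts from this small group say little. Stard4 encodes a carrier that moves cholesterol between membranes and is a known SREBP2 target. Its relative signal was 1.8, 1.81 and 1.86 with SC1 and 2.41, 2.70 and 2.65 with DMSO (log2 fold change -0.50, SE 0.057, limma adjusted p = 0.00123). A second probe gave -0.67, so both probes were lower. Soat1 encodes the enzyme that turns cholesterol into esters for storage. It stood at 0.248, 0.256 and 0.236 with SC1 and at 0.311, 0.350 and 0.349 with DMSO (log2 fold change -0.45, SE 0.0644, limma adjusted p = 0.00306), and at -0.25 after normexp background correction, with the call kept.

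Mylip encodes a ubiquitin ligase, also called IDOL, that sends lipoprotein receptors to degradation and is a known LXR target. Its relative signal was 1.18, 1.08 and 1.27 on the SC1 arrays and 0.511, 0.632 and 0.575 on the DMSO arrays. Each SC1 value was well above the highest DMSO value, a 2.06-fold rise (log2 fold change 1.04, SE 0.0993, limma adjusted p = 0.000646). The rise lay at the 97.9 percentile of all genes. A second, dim probe was well above background on all 3 SC1 arrays and on 1 of 3 DMSO arrays. It passed the filter only through the SC1 arrays, so its higher call adds no support.

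Abca1 and Abcg1 encode exporters that hand cholesterol to lipoproteins, and both are known LXR targets. Abca1 stood at 0.234, 0.216 and 0.221 with SC1 and at 0.184, 0.164 and 0.175 with DMSO (log2 fold change 0.36, SE 0.0588, limma adjusted p = 0.00507). These groups did not overlap, though the value was 0.14 with normexp and quantile normalization and the call was lost with spike-in scaling (adjusted p = 0.167). Abcg1 stood at 0.620, 0.653 and 0.693 with SC1 and at 0.499, 0.585 and 0.648 with DMSO. Its groups overlapped and it was not called (log2 fold change 0.19, 95% interval -0.06 to 0.44, limma adjusted p = 0.205).

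The calls of 15 of the 23 genes called held under all 19 alternative settings at the same threshold: those of Lss, Insig1, Sqle, Idi1, Msmo1, Dhcr7, Nsdhl, Cyp51, Tm7sf2, Stard4, Hmgcs1, Soat1, Mvd, Fdps and Mylip. The other 8 calls were lost under 1 or more settings.

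**Figure D3:**
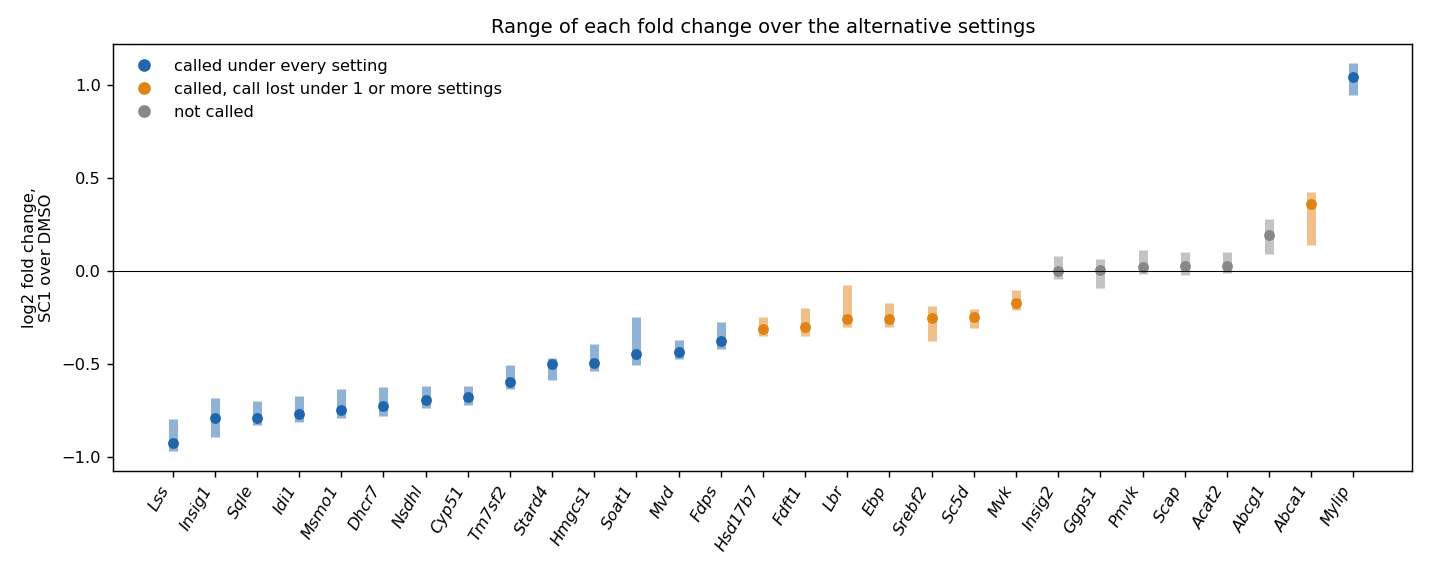
Log2 fold change of each of the 29 genes, ordered from the largest fall to the largest rise; points are the value reported and bars the range over 19 alternative settings. Blue genes kept their call under every setting, orange genes lost it under at least 1, and grey genes were not called.

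The position of the arrays on the slide moved with the groups. All 6 arrays were on 1 slide and read in 1 scan, with the 3 DMSO arrays and the first SC1 array in slide column 1 and the other 2 SC1 arrays in column 2. Column 1 thus held 1 SC1 array for a comparison within it. The enzymes' median against DMSO was -0.36 on that array and -0.43 on the 2 SC1 arrays of column 2. With the column as a block in limma, 16 genes stayed lower and 2 higher, and the calls of Mvk, Fdft1, Lbr, Hsd17b7 and Sc5d were lost (adjusted p 0.0523 to 0.107). Their log2 fold changes in that fit were -0.21 for Mvk, -0.20 for Fdft1, -0.24 for Lbr, -0.25 for Hsd17b7 and -0.29 for Sc5d. Over all 25439 genes the same fit called 2856 lower and 2693 higher. The percentile used for scaling also differed, at 443.3 to 493.3 with SC1 and 532.2 to 539 with DMSO. With arrays scaled to the spike-in probes in place of that percentile, 14 genes were lower and 1 higher, and the median of the 20 enzymes was -0.45. That scaling called 2781 lower and 2288 higher over all 25439 genes.

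All 8 embryonic stem cell markers were well above background on all 6 arrays, and 4 of them, Sox2, Zfp42, Tdgf1 and Utf1, fell with SC1. Their summed relative signal was 566 to 598 with SC1 and 611 to 633 with DMSO. Of 7 fibroblast markers 5 were well above background on all 6 arrays and Lum and Postn on none. Thy1 fell and Col1a1, Col3a1 and Dcn rose, with a sum of 1.68 to 1.79 with SC1 and 2.19 to 2.35 with DMSO. The sum for 3 neural markers, of which Pax6 and Sox1 fell, was 2.25 to 2.40 with SC1 and 2.94 to 3.01 with DMSO, and that for 6 primitive endoderm markers, of which Gata4 rose, was 0.698 to 0.797 with SC1 and 0.739 to 0.786 with DMSO. The hepatocyte markers Alb, Apoa1 and Cyp7a1 were well above background on no array. These sums are weighted to the brightest probes, Dppa5a among the stem cell markers and Thy1 among those of fibroblasts. They do not measure a share of cells. Dppa5a itself was not called, with a log2 fold change of 0.13, while those of Utf1 and Tdgf1 were -2.36 and -1.39. The part of these shifts in the fall of the sterol genes was not tested. Of 7 listed ERK output genes Fosl1 was too dim to test and the other 6 fell. Among these was Dusp6, an ERK phosphatase, at 0.304, 0.356 and 0.341 with SC1 and 10.4, 11 and 10.3 with DMSO. The ERK list was chosen with earlier results of these data known, so it is no independent check that the compound acted.

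Other lists of sterol and lipid genes were set beside the 29. The list nearest to the enzymes in its counts was that of lipogenic SREBP targets, genes of fatty acid synthesis, desaturation and other lipid handling. Of these 13 genes 11 fell, 1 rose and 1 was not called, beside 20.2% lower and 18.1% higher over all genes. Their median log2 fold change was -0.39. The lower calls numbered 7 with spike-in scaling and 6 in the fit blocked by slide column. Scd1, the main stearoyl-CoA desaturase of liver and fat, stood at 1.01, 0.893 and 0.974 with SC1 and at 2.71, 2.91 and 2.85 with DMSO (log2 fold change -1.56, SE 0.0611, limma adjusted p = 3.00e-05). Fads1, a desaturase of polyunsaturated fatty acids, fell by 0.57 and Scd2 by 0.46 on the log2 scale. The gene of this list that rose was Pnpla3, a lipid droplet protein and known SREBP1 target. It stood at 0.510, 0.487 and 0.483 with SC1 and 0.210, 0.170 and 0.188 with DMSO (log2 fold change 1.39, SE 0.0824, limma adjusted p = 0.000117). Acly and Acss2 were placed in the list of other steps below, not in this one, and neither was called. Their log2 fold changes were 0.13 and -0.08 (limma adjusted p = 0.103 and 0.216).

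The genes that process SREBP or carry out sterol-regulated degradation gave 1 lower call, no higher call and 13 not called among 14, beside 20.2% lower and 18.1% higher over all genes. Their median log2 fold change was 0.06, and the higher calls ran from 0 to 5 under other settings. The one that fell was Rnf145, a ubiquitin ligase of the endoplasmic reticulum known in mouse liver as an LXR target that acts on SCAP. It stood at 1.38, 1.28 and 1.34 with SC1 and at 1.98, 2.00 and 1.86 with DMSO (log2 fold change -0.55, SE 0.0515, limma adjusted p = 0.000603). Srebf1, which encodes SREBP1, had a log2 fold change of 0.02 (limma adjusted p = 0.909).

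Of 9 measured genes in other steps or redox partners of sterol synthesis, 1 fell, 1 rose and 7 were not called. Over all genes 20.2% were lower and 18.1% higher, and the median log2 fold change of the 9 was -0.03. With spike-in scaling 0 of the 9 were lower and 0 higher. Por, which feeds electrons to Cyp51 and Sqle, stood at 12.8, 11.5 and 13.2 with SC1 and at 9.78, 10.0 and 9.42 with DMSO. It rose (log2 fold change 0.36, SE 0.0637, limma adjusted p = 0.00708) while Cyp51 and Sqle fell.

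Of 15 genes that use isoprenoids for other ends, 3 were lower, 3 higher and 9 not called, shares near those of all genes (20.2% lower and 18.1% higher). The lower calls came to 0 with spike-in scaling and 1 in the fit blocked by slide column. Those lower were Nus1, a subunit of the dolichol synthase (log2 fold change -0.32), Pdss1, which makes the tail of ubiquinone (-0.31), and Rabggtb, a subunit of the Rab prenyltransferase (-0.22). Fnta and Fntb, the subunits of protein farnesyltransferase, rose by log2 fold changes of 0.36 and 0.47. Trit1, which puts an isoprenoid on transfer RNA, had 0.15. Fntb stood at 1.41, 1.28 and 1.31 with SC1 and at 0.925, 0.935 and 1.02 with DMSO (SE 0.0622, limma adjusted p = 0.00223).

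Among 14 measured genes of LXR, oxysterols, efflux and esters, 5 rose, 1 fell and 8 were not called. Over all genes 18.1% were higher and 20.2% lower, and the median log2 fold change of the 14 was -0.01. With spike-in scaling 3 of them were higher. Abcg4, a sterol exporter known from brain, stood at 0.346, 0.351 and 0.302 with SC1 and at 0.127, 0.141 and 0.134 with DMSO (log2 fold change 1.31, SE 0.0747, limma adjusted p = 0.0001). Cyp7b1, an oxysterol hydroxylase, rose by a log2 fold change of 0.47 and Nceh1, a cholesterol ester hydrolase, by 0.32. Lipa, the lysosomal acid lipase that frees cholesterol from esters, was the gene that fell, at 0.190, 0.250 and 0.217 with SC1 and 0.453, 0.448 and 0.444 with DMSO (log2 fold change -1.04, SE 0.0994, limma adjusted p = 0.000643).

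The 17 sterol carriers between membranes had a median log2 fold change of 0.16. They gave 9 higher, 4 lower and 4 not called, beside 18.1% higher and 20.2% lower over all genes. Many of these calls were lost under other settings: with the slide column as a block 3 were higher and 1 lower, with spike-in scaling 2 and 0, and with any 1 array left out 5 to 9 and 1 to 2. Osbpl5, of the oxysterol-binding protein family, stood at 0.817, 0.873 and 0.821 with SC1 and at 0.466, 0.526 and 0.520 with DMSO (log2 fold change 0.73, SE 0.0629, limma adjusted p = 0.000422). Osbpl8 of the same family had a log2 fold change of 0.49 and Osbpl1a 0.22, while Osbpl2, also of this family, was called lower at -0.18. Tmem97, a sterol-binding membrane protein and known SREBP target, fell by 0.31 on the log2 scale. Scp2 at -0.19 and Gramd1b at -0.20 were also called lower, but not with the slide column as a block. In that fit 1 carrier was lower, so Osbpl2 and Tmem97 did not both keep their calls.

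**Figure D4:**
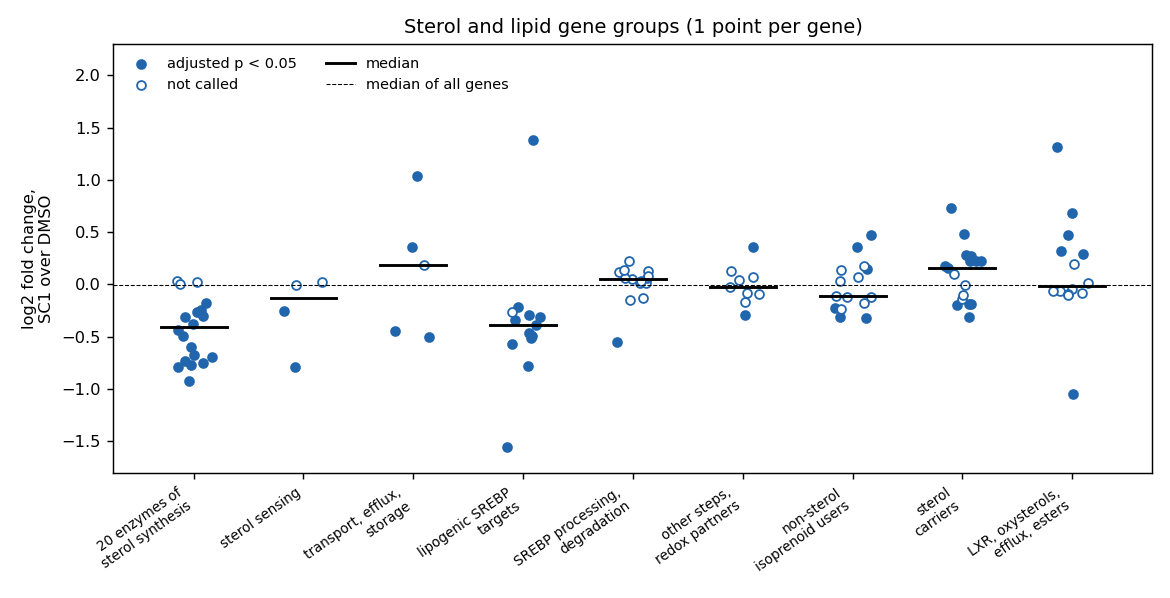
Log2 fold change of SC1 over DMSO for each gene of the 29 and of the other sterol and lipid lists; filled points passed the test, bars are list medians and the dashed line is the median of all genes. The 20 enzymes (median -0.41) and the lipogenic SREBP targets (median -0.39) lie mostly below the line, while the sterol carriers have a median of 0.16.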

How the data were processed

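Per the labels' protocols, Cy3-labelled RNA, amplified from total RNA, was read on single-colour Agilent arrays. The authors deposited an intensity per spot, already corrected for background, and spots were quantified with Agilent Feature Extraction 10.7, per the submitters' processing notes. They also deposited a table of log2 values whose method is not stated. Its median was 5.17 on each array, and it lay near quantile-normalized signals (median absolute difference 0.0392 to 0.0401). Its scale and direction were thus settled and its level lay near that of those signals, but how it was centred is not stated.

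Control and outlier spots (137 to 201 per array) were left out, and no spot was saturated. The log2 processed signal minus the array's 75th percentile was averaged over spots of a probe. A RefSeq table named 27235 probes by accession. A probe was kept (35321 were) where SC1 or DMSO had it well above background on each of 3 arrays, and the brightest probe stood for its gene. Left-out spots gave 59 missing values, which were filled with the mean of the group's other arrays, none of them in probes of the 29 genes. SC1 (n = 3) was compared with DMSO (n = 3) by lmFit and eBayes of limma 3.58.1 (R 4.3.3), as a two-sided test with p-values adjusted over 25439 genes by Benjamini-Hochberg. The fit was tested on simulated data. Figures were drawn in Python 3.11.15 with matplotlib 3.10.9.

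The 29 genes and the other lists were chosen with earlier results of these data known, so no list has a test of its own. Named were all genes at control points or branches, those with the largest or smallest change of their step or with discordant probes, and up to 3 called genes per direction of each other list with the smallest p. Values of some genes that this rule names are not reported here. Same-numbered SC1 and DMSO samples did not deviate together (correlations -0.01, -0.04 and -0.02). Alternatives changed the scaling (quantile, median of detected probes, spike-in probes), background correction (normexp, offset 50), source (the deposited log2 table), filter, probe choice, variance model, blocks and threshold, and left out each array in turn.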

Additional observations from a re-analysis of the deposited data

How the results depend on the processing

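Each value was recomputed under alternative settings, and the 3 arrays per group limit what any of them can show. No all-gene median moved by over 0.1. Scaling to 8 spike-in probes gave 5069 genes called (2781 lower, 2288 higher), 1 of the 29 genes higher and 11 enzymes lower, with Mvk, Fdft1, Lbr, Hsd17b7, Ebp, Sc5d, Srebf2 and Abca1 losing their calls (adjusted p 0.108 to 0.402). It left 0 lower and 0 higher among the other steps, 0 lower and 1 higher among isoprenoid users, 3 higher in the LXR list, 0 lower and 2 higher among sterol carriers and 7 lipogenic targets lower. Medians were then -0.45 for the enzymes, -0.32 for the first group and -0.64 for the late enzymes. With the slide column as a block, 5549 genes were called (2856 lower, 2693 higher), 1 isoprenoid user lower, 1 sterol carrier lower and 3 higher, and 6 lipogenic targets lower, with medians of -0.36 for the enzymes, -0.54 for the late enzymes and -0.20 for sterol sensing. At adjusted p under 0.01, 5794 genes were called (3003 lower, 2791 higher), with 1 sterol carrier lower and 5 higher.

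Same-numbered samples share only a number. With the replicate number as a block, 18 of the 29 genes were lower and 2 higher, against 21 and 2 without it, and Mvk, Sc5d and Srebf2 lost their calls (adjusted p 0.058 to 0.0611). There was then 1 higher call in the SREBP processing list and 1 lower call among sterol carriers.

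With normexp and 75th percentile scaling 6977 genes were higher, 2 of the other steps and 5 isoprenoid users were lower, 1 SREBP processing gene was higher and the first group's median was -0.32. Cyp27a1, at -0.10 and not called, was then called at 0.15, and the cause was not tested. With normexp and quantile normalization 2 of the other steps were higher, SREBP processing had 2 lower and 5 higher, and the medians were -0.34 for the enzymes, -0.22, -0.71 and -0.50 along the chain and -0.069 for sterol sensing. Quantile normalization alone gave 3 higher among the other steps, 2 higher in SREBP processing, a median of -0.35 for the enzymes and -0.19, -0.70 and -0.54 along the chain. The authors' deposited log2 table gave the same counts of 3 and 2, with medians of -0.35, -0.20, -0.70 and -0.54. Mvk lost its call in both. The mean of a gene's probes gave 2 of the other steps lower, 2 SREBP processing genes higher and a sterol sensing median of -0.081, and Lbr lost its call. The intensity trend gave 2 lower and 2 higher among the other steps and 2 higher in SREBP processing. A filter on all 6 arrays and array weights each gave 1 higher in SREBP processing. Without a filter 2 sterol carriers were lower, and Sc5d and Srebf2 lost their calls. Testing every probe gave medians of -0.31 for the enzymes, -0.18 for the first group, -0.55 for squalene and lanosterol and -0.063 for sterol sensing.

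Leaving out each array gave 7789 to 8454 genes called (3985 to 4412 lower, 3718 to 4042 higher), 18 to 20 of the 29 genes lower and 2 higher, and 15 to 17 enzymes lower. Sterol carriers had 1 to 2 lower and 5 to 9 higher, SREBP processing 0 to 1 higher, and the transport group a median of 0.089 to 0.28. Of 1670 recomputed values of 88 other genes, 1517 stayed on the same side of the threshold without a called value turning sign, 103 lost a call, 49 gained one and 1 reversed.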
